A study of Arabidopsis thaliana with 16 samples.

Results

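Hypocotyls, the embryonic stems below the seed leaves, were compared between an Arabidopsis line that makes the brassinosteroid receptor BRL3 in its phloem and the brl3-2 mutant it was built from, both grown at 22 °C. The first line, labelled pSUC2::BRL3-GFP; brl3-2 and called pSUC2-BRL3 from here on, carries BRL3 fused to GFP under the SUC2 promoter. The second, brl3-2, is an insertion mutant of BRL3, so both lines carry the same mutant allele and the transgene is the labelled difference. Other differences between the lines were not tested. Col-0, the wild type, is given beside them. Each group had 2 libraries, labelled as biological replicates, of hypocotyls from 6-day-old seedlings grown in long days. The comparison uses 4 of the 16 libraries of the study. All genes past a low-count filter were kept, 20505 of 33296. The same 2 lines at 28 °C served as a second comparison from separate libraries. The study also holds BRL3ox, which expresses BRL3-GFP from the general 35S promoter. It enters here through the spread that the test estimates, and its levels are given for a few genes only.

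BRL3 is a leucine-rich repeat receptor kinase of the BRI1 family that binds brassinosteroids, the plant steroid hormones of cell elongation. Unlike BRI1, which most cells make, BRL3 is found mainly in vascular tissue. When a receptor of this family binds the hormone at the cell surface, it pairs with the co-receptor BAK1, and a phosphorylation chain then lets the transcription factors BZR1 and BES1 reach their target genes. The SUC2 promoter is active in phloem companion cells, which load sucrose for transport. The transgene therefore need not restore BRL3 in every cell that makes it in the wild type. How many independent lines carry the transgene is not given in the labels. The counts are of whole hypocotyls, in which fewer cells of a type and less RNA per cell cannot be told apart.

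Total counts were 21615322 and 22319814 in the pSUC2-BRL3 libraries and 20127707 and 19727933 in the brl3-2 libraries. All expression values below are CPM, counts as a share of the library after scaling for library composition, given as replicate 1 and then replicate 2. CPM does not correct for gene length, so levels are compared between libraries and not between genes. Changes are log2 ratios of pSUC2-BRL3 over brl3-2 with adjusted p from edgeR's quasi-likelihood test over all genes, and a gene was called at an adjusted p below 0.05. With 2 replicates a group, and no account of how they were grown apart, p speaks for these samples only. In the fit of all 16 libraries it sets a change against the spread between replicates, pooled over all 8 groups. Library 2 of BRL3ox at 22 °C stood apart from its partner, with 2703 genes at least 2-fold apart, and so did library 1 of pSUC2-BRL3 at 28 °C, with 675. In the lines compared here the numbers were 144 in pSUC2-BRL3 and 96 in brl3-2. These 2 libraries are not part of the comparison at 22 °C, yet they enter the estimate of the shared spread, so results are given with and without them.

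The transgene was read first. BRL3 (AT3G13380) had 66.2 and 38.6 CPM in pSUC2-BRL3, 0.531 and 0.791 CPM in brl3-2 and 19.5 and 10.5 CPM in Col-0. Both pSUC2-BRL3 libraries lay above all of Col-0, and the brl3-2 libraries far below it. The difference was 78.4-fold (log2 6.29, SE 0.413, adjusted p = 0.000127), from 1851 counts in pSUC2-BRL3 and 23 counts in brl3-2 over both libraries. Reads of the endogenous gene and of the transgene cannot be told apart in these counts. SUC2 itself, the sucrose carrier whose promoter drives the transgene, had 111 and 87 CPM in pSUC2-BRL3 and 80.6 and 95.3 CPM in brl3-2, which overlap (log2 0.17).

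Besides BRL3, the pSUC2-BRL3 hypocotyls had more RNA of the wall-loosening gene EXPA11, the auxin carrier gene AUX1 and the ethylene signalling gene EBF2. They had less RNA of the jasmonate synthesis gene OPR3, the ethylene synthesis gene ACS7, the pathogen response gene WRKY18 and the cell death genes CAD1 and NSL1. In all 63 genes were called, 0.307% of those tested, of which 31 were higher (0.151%) and 32 lower (0.156%). Changes were at least 2-fold in 17 of the higher and 28 of the lower genes. In every one of the 63 both libraries of one line lay above both of the other, a separation that 31.7% of all tested genes showed upwards and 28.7% downwards. Col-0 averaged between the 2 lines in 23 of the 31 higher genes and 29 of the 32 lower ones. These genes were picked for a gap between the 2 lines, and a wide gap by itself makes a value in between more likely. The share among all tested genes is not given here, so a return towards the wild type was not tested by these counts. Of the 63 genes 32 carry a symbol, and 24 of these are described by name. The others were 19 higher genes with log2 changes of 0.59 to 2.92 and 20 lower ones with -5.24 to -0.78.

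The number of calls rested on which libraries set the spread. It was 3715 (17.8%) without the 2 libraries that stood apart, 2134 of them higher (10.2%) and 1581 lower (7.57%), and 3179 (16.7%) in a fit of the 4 libraries alone. A fit of the 8 libraries at 22 °C called 0 genes by edgeR, with 2330 at an unadjusted p below 0.05 and a smallest adjusted p of 0.0502. DESeq2 called 380 genes in the same 8 libraries. The first fit had 3840 genes at an unadjusted p below 0.05. Leaving out any 1 of the 4 compared libraries left 1 or 2 calls, BRL3 among them each time. All 63 genes were also called without the 2 libraries and in the 4 libraries alone. Without the 2 libraries, leaving out 1 compared library in turn kept 61 to 63 of them.

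**Figure D1:**
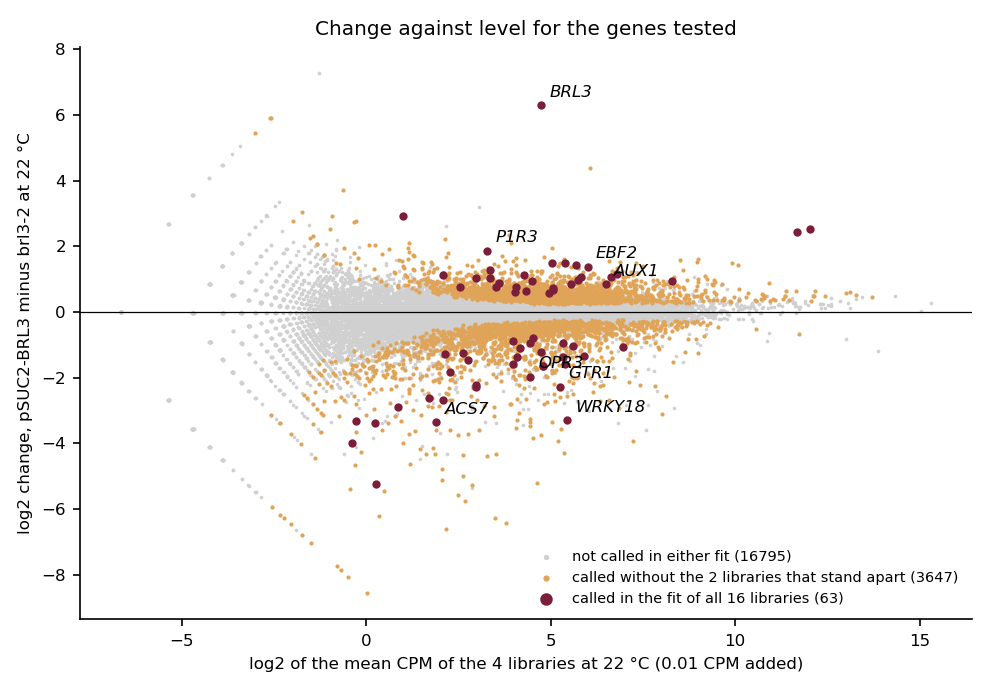
Log2 change of pSUC2-BRL3 over brl3-2 at 22 °C for each of the 20505 tested genes (vertical axis) against the log2 of its mean CPM over the 4 libraries with 0.01 added (horizontal axis). Grey points are the 16795 genes called in neither fit, pale points the 3647 called only without the 2 libraries that stood apart, and dark points the 63 called with all 16 libraries; BRL3, at 6.29, is the called gene with the largest rise.

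Of the named genes that rose 4 encode cell wall proteins or enzymes of wall polysaccharides. EXPA11, an expansin that loosens walls during growth, had 44.6 and 51.5 CPM in pSUC2-BRL3, 17.7 and 16.7 CPM in brl3-2 and 17.2 and 25.6 CPM in Col-0 (log2 1.48, SE 0.207, adjusted p = 0.0314). Here the transgenic line stood above both brl3-2 and Col-0, and BRL3ox at 22 °C was also high, with 51.7 and 35.1 CPM. GATL7, of a family of galacturonosyltransferase-like enzymes of wall polysaccharides, had 56.0 and 67.0 CPM in pSUC2-BRL3, 21.1 and 22.4 CPM in brl3-2 and 17.2 and 19.6 CPM in Col-0 (log2 1.5, SE 0.192, adjusted p = 0.0277). It too lay above Col-0, while brl3-2 was near the wild type. GAUT10, a galacturonosyltransferase of pectin synthesis, was at 16.1 and 15.3 CPM in pSUC2-BRL3 and at 8.26 and 8.70 CPM in brl3-2 (log2 0.89). DGR2, a wall protein of the DUF642 family, had 376 and 449 CPM in pSUC2-BRL3, 237 and 189 CPM in brl3-2 and 294 and 356 CPM in Col-0 (log2 0.95). Its wild-type values fell between the 2 lines.

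Named genes of hormone pathways that rose were AUX1, ATAUX2-11, MAX2 and EBF2. AUX1, the carrier that takes auxin into cells, had 113 and 120 CPM in pSUC2-BRL3, 61.0 and 67.5 CPM in brl3-2 and 60.7 and 82.9 CPM in Col-0 (log2 0.86, adjusted p = 0.0477). ATAUX2-11, also known as IAA4, a repressor of auxin response that auxin itself induces, had 153 and 155 CPM in pSUC2-BRL3, 73.0 and 64.3 CPM in brl3-2 and 77.1 and 109 CPM in Col-0 (log2 1.17, adjusted p = 0.0436). Both auxin genes were higher in pSUC2-BRL3 than in brl3-2 and Col-0, and AUX1 had 90.9 and 92.2 CPM in BRL3ox at 22 °C. MAX2, the F-box protein of strigolactone and karrikin signalling, had 74.2 and 66.7 CPM in pSUC2-BRL3, 38.6 and 33.1 CPM in brl3-2 and 45.5 and 52.9 CPM in Col-0 (log2 0.98). EBF2, the F-box protein that marks the ethylene response factor EIN3 for breakdown, had 103 and 82.5 CPM in pSUC2-BRL3, 34.2 and 36.9 CPM in brl3-2 and 79.0 and 81.5 CPM in Col-0 (log2 1.38, SE 0.201, adjusted p = 0.035). For EBF2 it was the mutant that stood apart, below both the wild type and the transgenic line.

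The remaining named rises were in 3 genes of other roles. P1R3 had the largest rise after BRL3 among the named genes called with all 16 libraries, with 14.3 and 16.2 CPM in pSUC2-BRL3, 4.54 and 3.79 CPM in brl3-2 and 0.657 and 0.906 CPM in Col-0 (log2 1.87, SE 0.295, adjusted p = 0.0436). In this gene brl3-2 was itself above Col-0. ADS1, a fatty acid desaturase, had 14.9 and 14.2 CPM in pSUC2-BRL3, 5.31 and 6.67 CPM in brl3-2 and 5.37 and 5.56 CPM in Col-0 (log2 1.28). RTFL17, of the ROTUNDIFOLIA-like family of small peptides, had 137 and 133 CPM in pSUC2-BRL3, 67.8 and 60.0 CPM in brl3-2 and 81.8 and 100.02 CPM in Col-0 (log2 1.08). Of the 31 higher genes 3 are encoded by organelle genomes. Plastid genes took 3.22% and 2.86% of counts in pSUC2-BRL3 and 2.03% and 2.19% in brl3-2, and the part of this share in those calls was not tested.

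**Figure D2:**
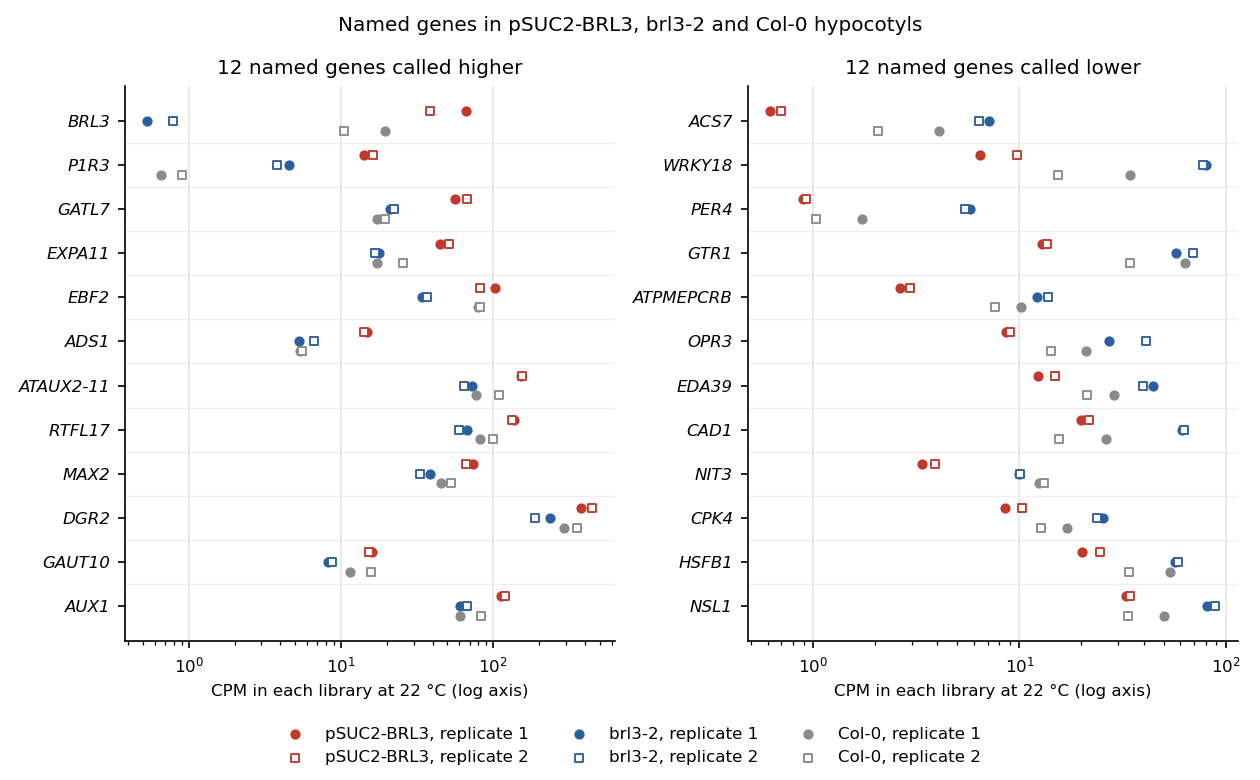
CPM (horizontal axis, log scale) of BRL3 and the genes named as largest rises and falls, one row per gene, in each library at 22 °C of pSUC2-BRL3, brl3-2 and Col-0. In every row the 2 pSUC2-BRL3 points and the 2 brl3-2 points form separate pairs, and the Col-0 points lie between them for most of the genes that fell.

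Named genes of hormone, defence and heat responses that fell were ACS7, WRKY18, OPR3 and HSFB1. ACS7, a synthase of the ethylene precursor ACC, had 0.615 and 0.694 CPM in pSUC2-BRL3, 7.14 and 6.39 CPM in brl3-2 and 4.06 and 2.07 CPM in Col-0 (log2 -3.36, SE 0.515, adjusted p = 0.0387). WRKY18, a transcription factor of the pathogen response, had 6.43 and 9.72 CPM in pSUC2-BRL3, 80.1 and 78.1 CPM in brl3-2 and 34.4 and 15.5 CPM in Col-0 (log2 -3.29, SE 0.588, adjusted p = 0.0477). In both genes Col-0 lay between the 2 lines. The call of WRKY18 was also lost, in the fit without the 2 libraries, when replicate 1 of pSUC2-BRL3 was left out. OPR3, the reductase that commits oxophytodienoic acid to jasmonate, had 8.61 and 8.96 CPM in pSUC2-BRL3, 27.3 and 41.3 CPM in brl3-2 and 21.0 and 14.2 CPM in Col-0 (log2 -1.96, SE 0.302, adjusted p = 0.0387). HSFB1, a heat shock factor that acts as a repressor, had 20.13 and 24.6 CPM in pSUC2-BRL3, 57.0 and 59.0 CPM in brl3-2 and 53.9 and 34.2 CPM in Col-0 (log2 -1.37). The values in brl3-2 were the highest of the 3 genotypes in each of these 4 genes.

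A pair of genes that restrain cell death fell together. CAD1 and NSL1 encode proteins with a membrane-attack-complex domain, and plants without either one form spontaneous lesions. CAD1 had 19.9 and 21.7 CPM in pSUC2-BRL3, 61.7 and 62.9 CPM in brl3-2 and 26.4 and 15.6 CPM in Col-0 (log2 -1.58, SE 0.274, adjusted p = 0.0443). NSL1 had 32.8 and 34.5 CPM in pSUC2-BRL3, 81.0 and 89.1 CPM in brl3-2 and 50.1 and 33.7 CPM in Col-0 (log2 -1.34, SE 0.226, adjusted p = 0.0443). For both, pSUC2-BRL3 was near the Col-0 range and brl3-2 was above it. The calcium-dependent kinase CPK4 had 8.56 and 10.3 CPM in pSUC2-BRL3, 25.4 and 23.7 CPM in brl3-2 and 17.0 and 12.7 CPM in Col-0 (log2 -1.38). EDA39, a calmodulin-binding protein, had 12.2 and 14.9 CPM in pSUC2-BRL3, 44.3 and 39.6 CPM in brl3-2 and 28.7 and 21.4 CPM in Col-0 (log2 -1.63).

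The other 4 named falls were in transport, wall and nitrile enzymes. GTR1, a carrier that loads glucosinolate defence compounds into the phloem, had 12.8 and 13.5 CPM in pSUC2-BRL3, 57.4 and 69.8 CPM in brl3-2 and 63.9 and 34.5 CPM in Col-0 (log2 -2.27, SE 0.368, adjusted p = 0.0436). The transgenic line was below both brl3-2 and Col-0 here, and BRL3ox at 22 °C was also low, with 18.4 and 12.4 CPM. PER4, a class III peroxidase, had 0.895 and 0.925 CPM in pSUC2-BRL3, 5.78 and 5.43 CPM in brl3-2 and 1.73 and 1.04 CPM in Col-0 (log2 -2.62, SE 0.365, adjusted p = 0.0314). The pectin methylesterase gene ATPMEPCRB had 2.63 and 2.95 CPM in pSUC2-BRL3, 12.2 and 13.7 CPM in brl3-2 and 10.2 and 7.57 CPM in Col-0 (log2 -2.22). NIT3, a nitrilase, had 3.36 and 3.87 CPM in pSUC2-BRL3, 9.92 and 10.06 CPM in brl3-2 and 12.4 and 13.1 CPM in Col-0 (log2 -1.47). The Col-0 replicates were themselves unequal in the genes that fell: replicate 1 was above replicate 2 in 29 of the 32 (90.6%), against 46.7% of all tested genes and 10 of the 31 genes that rose (32.3%). The part of this in the placing of Col-0 between the lines was not tested.

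WRKY factors bind the W-box, and its letters were looked for in the 250 bases before the annotated start of each gene. The motif searched was TTGACC or TTGACT on either strand, which read AGTCAA or GGTCAA on the printed strand when they lie on the other one. It was present in 15 of 32 windows of the genes that fell (46.9%), in 8 of 28 of the nuclear genes that rose (28.6%) and in 28.2% of the 20335 windows of all tested genes. Among the 12 named falls, the windows of WRKY18, OPR3, HSFB1, PER4, EDA39 and NIT3 held none. The 4 windows printed were picked because they hold the motif, and are those of 2 called genes, GTR1 and CAD1, and of 2 WRKY genes described further on, WRKY33 and WRKY53. They come from the RefSeq TAIR10.1 assembly and read towards the gene, and capitals mark the W-box letters. GTR1 held them at 191, 107 and 87 bases before the start, CAD1 at 46, WRKY33 at 96 and 32, and WRKY53 at 219 and 71.
GTR1, chr3:17700924-17701173, minus strand: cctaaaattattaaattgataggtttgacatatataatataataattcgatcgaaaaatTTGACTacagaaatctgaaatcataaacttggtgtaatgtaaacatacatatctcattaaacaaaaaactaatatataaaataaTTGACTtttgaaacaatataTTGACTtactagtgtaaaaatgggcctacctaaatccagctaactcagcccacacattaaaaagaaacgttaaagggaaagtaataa
CAD1, chr1:10382154-10382403, minus strand: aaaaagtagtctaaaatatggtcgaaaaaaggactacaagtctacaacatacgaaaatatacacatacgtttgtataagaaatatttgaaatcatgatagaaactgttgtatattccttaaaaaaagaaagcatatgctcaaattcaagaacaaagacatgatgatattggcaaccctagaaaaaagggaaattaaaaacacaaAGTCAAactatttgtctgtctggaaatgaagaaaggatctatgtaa
WRKY33, chr2:16107985-16108234, plus strand: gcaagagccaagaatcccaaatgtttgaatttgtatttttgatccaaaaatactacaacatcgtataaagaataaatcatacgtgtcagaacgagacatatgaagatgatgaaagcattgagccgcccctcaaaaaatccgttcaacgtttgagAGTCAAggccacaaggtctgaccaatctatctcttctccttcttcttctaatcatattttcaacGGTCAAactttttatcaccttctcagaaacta
WRKY53, chr4:12393983-12394232, minus strand: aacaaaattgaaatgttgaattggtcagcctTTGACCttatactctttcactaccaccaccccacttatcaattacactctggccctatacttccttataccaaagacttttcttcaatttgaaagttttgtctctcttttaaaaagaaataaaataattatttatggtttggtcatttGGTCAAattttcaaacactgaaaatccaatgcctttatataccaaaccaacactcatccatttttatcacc
A match of letters is a description and does not show that a protein binds there. The brassinosteroid response letters CGTGCG or CGTGTG, which BZR1 binds, were present in 6 of the 32 windows of genes that fell (18.8%), in 1 of the 28 of genes that rose (3.57%) and in 6.92% of all windows. The G-box CACGTG was present in 3 of 32 and in 2 of 28 windows, and in 7.52% of all.

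Lists of genes of known function gave a wider view than single calls. For each list the median log2 change over its tested members stands beside the median of all tested genes, 0.01, and members whose libraries did not overlap are counted beside the 31.7% and 28.7% above. Calls without the 2 libraries, where given, stand beside the 10.2% higher and 7.57% lower of all genes. The jasmonate list holds enzymes of synthesis and turnover, MYC2, response genes such as VSP2, and the JAZ repressors. Jasmonate induces these repressors, and they hold the response back. The median of the list was -1.33 over 19 members, 15 were lower in both pSUC2-BRL3 libraries and 1 was higher. OPR3 was its 1 call, and 8 of 19 were called lower without the 2 libraries, against 7.57% of all genes. LOX4, a lipoxygenase of the first step, had 0.951 and 1.68 CPM in pSUC2-BRL3, 43.0 and 53.3 CPM in brl3-2 and 26.6 and 3.62 CPM in Col-0 (log2 -5.19, adjusted p = 0.0764). Its relative LOX3 had 3.3 and 4.45 CPM in pSUC2-BRL3, 35.6 and 43.6 CPM in brl3-2 and 20.2 and 5.37 CPM in Col-0 (log2 -3.35, adjusted p = 0.0524). Neither passed the threshold with all 16 libraries, and both did without the 2 libraries (adjusted p = 0.015 and adjusted p = 0.00943). LOX3 and LOX4 were chosen after their values were seen.

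Among the repressors, JAZ5 had 0.447 and 0.289 CPM in pSUC2-BRL3, 8.97 and 14.9 CPM in brl3-2 and 6.03 and 1.68 CPM in Col-0 (log2 -4.99, adjusted p = 0.0524, and adjusted p = 0.00778 without the 2 libraries). JAZ7 had 0.447 and 1.45 CPM in pSUC2-BRL3, 12.2 and 12.8 CPM in brl3-2 and 3.28 and 1.10 CPM in Col-0 (log2 -3.72). JAZ2, at 15.5 and 15.6 CPM in pSUC2-BRL3 and 27.6 and 29.5 CPM in brl3-2, differed less (log2 -0.87). In all 3 the pSUC2-BRL3 libraries were lower than both brl3-2 libraries. JAZ8, chosen after its values were seen, had 0 counts in pSUC2-BRL3 and 49 counts in brl3-2, at least 16.6-fold lower against a floor of 3 counts over both libraries.

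The list of pattern-triggered defence, the response to microbial molecules sensed at the cell surface, had a median of -1.18 over 15 members, or -0.99 with a member at 0 counts set to its bound. In it 11 members were lower and 3 higher in both libraries. Without the 2 libraries 6 were called lower and 1 higher, against 7.57% and 10.2% of all genes. WRKY33, the regulator of camalexin synthesis, had 9.90 and 26.7 CPM in pSUC2-BRL3, 285 and 275 CPM in brl3-2 and 117 and 18.5 CPM in Col-0 (log2 -3.94, adjusted p = 0.114, and adjusted p = 0.018 without the 2 libraries). WRKY53 had 0.727 and 1.45 CPM in pSUC2-BRL3, 21.6 and 21.7 CPM in brl3-2 and 7.22 and 2.33 CPM in Col-0 (log2 -4.32, adjusted p = 0.0845, and adjusted p = 0.0124 without the 2 libraries). The Col-0 libraries were far apart in WRKY33, so a wild-type level is poorly fixed there. PEPR1, a receptor of damage peptides, had 25.8 and 24.6 CPM in pSUC2-BRL3 and 44.1 and 56.2 CPM in brl3-2 (log2 -0.99). BIK1, a kinase beneath such receptors, had 16.4 and 16.3 CPM in pSUC2-BRL3 and 33.0 and 28.9 CPM in brl3-2 (log2 -0.92). The flagellin receptor gene FLS2 ran the other way, with 3.24 and 3.70 CPM in pSUC2-BRL3 and 1.12 and 0.848 CPM in brl3-2 (log2 1.82, adjusted p = 0.0978, and adjusted p = 0.00364 without the 2 libraries). The W-box letters stood in 9 of the 15 windows of this list (60.0%) and in 5 of the 19 of the jasmonate list (26.3%).

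Salicylic acid defence genes had a median of -1.05 over 12 members, 8 lower and 1 higher in both libraries. Without the 2 libraries 2 were called lower, against 7.57% of all genes. CBP60G, a regulator of salicylic acid synthesis, had 1.23 and 3.99 CPM in pSUC2-BRL3, 19.9 and 19.05 CPM in brl3-2 and 7.76 and 2.78 CPM in Col-0 (log2 -2.90, adjusted p = 0.106, and adjusted p = 0.00845 without the 2 libraries). EDS1, a hub of this pathway, had 27.1 and 30.2 CPM in pSUC2-BRL3 and 42.0 and 38.5 CPM in brl3-2, and Col-0 was lowest at 17.3 and 16.6 CPM (log2 -0.49, not called in either fit). Col-0 replicate 1 was above replicate 2 in 14 of 19 jasmonate, 12 of 15 pattern-triggered and 9 of 12 salicylic acid members.

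**Figure D3:**
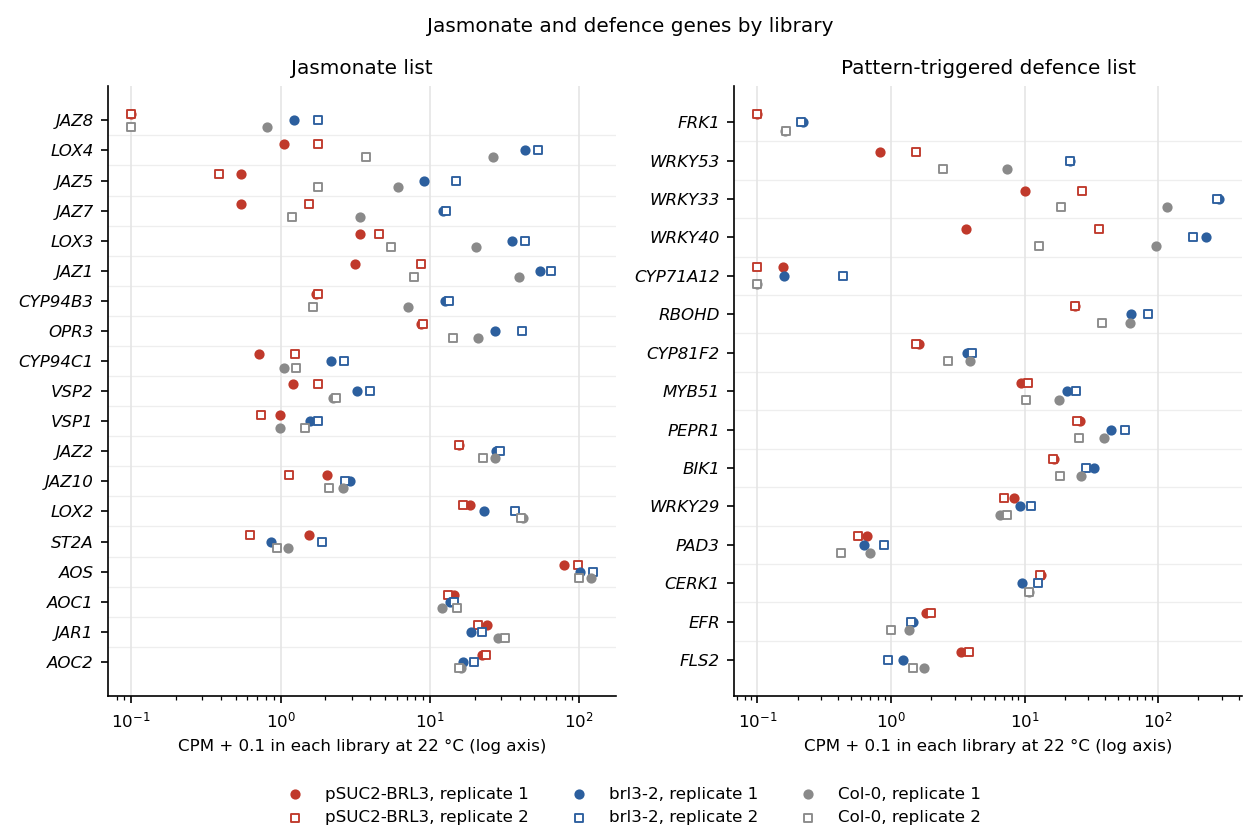
CPM (horizontal axis, log scale) of the tested members of the jasmonate list (left) and the pattern-triggered defence list (right), one row per gene, in each library at 22 °C of pSUC2-BRL3, brl3-2 and Col-0, with 0.1 added so that 0 can be drawn. The brl3-2 points lie to the right of the pSUC2-BRL3 points in most rows, with AOC2, FLS2, EFR and CERK1 the other way, and the 2 Col-0 points are often far apart, as in WRKY33 at 117 and 18.5 CPM.

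The heat shock and cold-regulated lists also had medians below that of all genes. Heat shock genes had a median of -1.07 over 17 members, 12 lower and 2 higher in both libraries, with HSFB1 called. Without the 2 libraries 7 were called lower, against 7.57% of all genes. HSP90.1, a chaperone, had 9.90 and 12.2 CPM in pSUC2-BRL3, 26.7 and 22.7 CPM in brl3-2 and 45.6 and 34.1 CPM in Col-0 (log2 -1.16). The chaperone gene HSP70 had 51.1 and 52.5 CPM in pSUC2-BRL3, 116 and 104 CPM in brl3-2 and 162 and 136 CPM in Col-0 (log2 -1.08). Unlike the defence genes, these chaperones were highest in Col-0. Cold-regulated genes had a median of -1.05 over 14 members, 10 lower and 1 higher in both libraries. Without the 2 libraries 2 were called lower and 1 higher, against 7.57% and 10.2% of all genes. CBF1, a factor that switches them on, had 0 and 0.694 CPM in pSUC2-BRL3, 8.62 and 5.26 CPM in brl3-2 and 6.33 and 0.906 CPM in Col-0 (log2 -4.32, adjusted p = 0.153, and adjusted p = 0.0359 without the 2 libraries). The 1 called higher, COR414-TM1, had 3.8 and 4.05 CPM in pSUC2-BRL3, 1.89 and 2.49 CPM in brl3-2 and 1.49 and 1.68 CPM in Col-0 (log2 0.84, adjusted p = 0.716, and adjusted p = 0.0342 without the 2 libraries). COR47, a dehydrin, had 149 and 194 CPM in pSUC2-BRL3 and 232 and 172 CPM in brl3-2, which overlap.

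The iron, sulfur-limitation and phosphate-starvation lists had medians below that of all genes too. Iron genes had a median of -1.13 over 16 members, 11 lower and 1 higher in both libraries. OPT3, an iron carrier of the phloem, had 53.0 and 47.5 CPM in pSUC2-BRL3, 137 and 147 CPM in brl3-2 and 352 and 275 CPM in Col-0 (log2 -1.5, adjusted p = 0.106, and adjusted p = 0.00294 without the 2 libraries). BTS, a ligase that restrains iron uptake, had 46.0 and 39.4 CPM in pSUC2-BRL3, 88.2 and 87.3 CPM in brl3-2 and 281 and 194 CPM in Col-0 (log2 -1.04, adjusted p = 0.0505). Sulfur-limitation genes had a median of -0.80 over 10 members, with 7 lower and 0 higher in both libraries. APR3, which reduces sulfate for cysteine synthesis, had 13.9 and 15.6 CPM in pSUC2-BRL3, 61.9 and 43.6 CPM in brl3-2 and 292 and 210 CPM in Col-0 (log2 -1.84). Phosphate-starvation genes had a median of -0.90 over 9 members, 7 lower and 1 higher. PAP17, an acid phosphatase, had 2.35 and 1.39 CPM in pSUC2-BRL3, 6.55 and 5.65 CPM in brl3-2 and 48.1 and 29.4 CPM in Col-0 (log2 -1.70). Among Col-0, brl3-2 and pSUC2-BRL3, both Col-0 libraries were the highest and both pSUC2-BRL3 libraries the lowest in OPT3, BTS, APR3 and PAP17. SQD2, a sulfolipid synthase and the most abundant gene of the phosphate list, ran the other way between the lines, with 55.4 and 52.0 CPM in pSUC2-BRL3, 51.5 and 43.7 CPM in brl3-2 and 87.7 and 81.5 CPM in Col-0 (log2 0.17, called in neither fit). Without the 2 libraries 5 genes of each of the 3 lists were called lower, and 1 iron gene higher, against 7.57% and 10.2% of all genes. With all 16 libraries the smallest adjusted p in the 3 lists was that of BTS.

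The list of brassinosteroid signalling and inactivation and that of the PIF pathway had the highest medians. The first holds repressors such as BIN2 and inactivating enzymes such as BAS1 beside BZR1 and BES1, so its median gives no direction of signalling. In it 12 of 18 were higher and 1 lower in both pSUC2-BRL3 libraries, with a median of 0.42. Without the 2 libraries 8 were called higher, against 10.2% of all genes. BEH1, a relative of BZR1, had 51.1 and 52.5 CPM in pSUC2-BRL3, 22.7 and 25.5 CPM in brl3-2 and 30.8 and 34.0 CPM in Col-0 (log2 1.10, adjusted p = 0.0616, and adjusted p = 0.00442 without the 2 libraries). BZR1 had 37.7 and 33.8 CPM in pSUC2-BRL3 and 25.7 and 26.4 CPM in brl3-2 (log2 0.46, adjusted p = 0.153, and adjusted p = 0.00943 without the 2 libraries). BES1, its close homologue, differed little, with 395 and 427 CPM in pSUC2-BRL3 and 365 and 395 CPM in brl3-2 (log2 0.11). In the receptor list, with a median of 0.09 over 12 members, BRL3 was the 1 call. BRI1, the main receptor, had 180 and 191 CPM in pSUC2-BRL3, 127 and 138 CPM in brl3-2 and 110 and 122 CPM in Col-0 (log2 0.49, adjusted p = 0.0754, and adjusted p = 0.00827 without the 2 libraries).

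Of 10 biosynthesis genes 6 were higher and 4 lower in both libraries (median 0.20). CYP90D1, a cytochrome P450 of the later steps, had 0.671 and 0.405 CPM in pSUC2-BRL3, 3.48 and 3.79 CPM in brl3-2 and 2.39 and 3.3 CPM in Col-0 (log2 -2.74, adjusted p = 0.0745, and adjusted p = 0.00632 without the 2 libraries). DWF1, an earlier enzyme, had 377 and 357 CPM in pSUC2-BRL3 and 316 and 299 CPM in brl3-2 (log2 0.26). The transgenic line was thus below both brl3-2 and Col-0 in CYP90D1, where BRL3ox at 22 °C was also low, with 0.571 and 1.38 CPM. In DWF1 pSUC2-BRL3 was near the wild type, at 331 and 377 CPM.

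The PIF pathway, through which light and warmth control hypocotyl growth, was read as a list of growth promoters and of repressors such as PAR1. Its median, 0.58 over 20 members, therefore gives no direction of growth. Of these 11 were higher and 6 lower in both libraries. Without the 2 libraries 7 were called higher and 3 lower, against 10.2% and 7.57% of all genes. The auxin synthesis gene YUC8 had 6.32 and 8.04 CPM in pSUC2-BRL3, 2.01 and 2.15 CPM in brl3-2 and 1.37 and 3.11 CPM in Col-0 (log2 1.79, adjusted p = 0.0767, and adjusted p = 0.00948 without the 2 libraries). PAR1, a repressor that plants make in shade, had 26.5 and 22.5 CPM in pSUC2-BRL3, 5.72 and 5.77 CPM in brl3-2 and 3.64 and 6.53 CPM in Col-0 (log2 2.09, adjusted p = 0.0859, and adjusted p = 0.00771 without the 2 libraries). In YUC8 and PAR1 pSUC2-BRL3 lay above brl3-2 and Col-0, and PAR1 had 18.3 and 59.0 CPM in BRL3ox at 22 °C. The factor PIF5 had 229 and 251 CPM in pSUC2-BRL3 and 230 and 206 CPM in brl3-2, which overlap (log2 0.14). Of auxin genes 9 of 19 were higher and 1 lower in both libraries (median 0.17). Without the 2 libraries 3 were called higher, against 10.2% of all genes. Among them was the efflux carrier PIN7 at 97.7 and 113 CPM in pSUC2-BRL3 and 49.8 and 52.8 CPM in brl3-2 (log2 1.04, adjusted p = 0.0602 with all 16 libraries).

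Expansins and xyloglucan enzymes were split, 9 higher and 10 lower of 20 (median -0.30). EXPA1 had 417 and 468 CPM in pSUC2-BRL3, 211 and 213 CPM in brl3-2 and 250 and 311 CPM in Col-0 (log2 1.06, adjusted p = 0.163, and adjusted p = 0.00282 without the 2 libraries). XTH18, a xyloglucan-joining enzyme, had 11.4 and 17.99 CPM in pSUC2-BRL3, 90.5 and 76.4 CPM in brl3-2 and 36.5 and 22.3 CPM in Col-0 (log2 -2.51, adjusted p = 0.0532, and adjusted p = 0.00583 without the 2 libraries). Among gibberellin genes (median -0.30 over 17, 3 higher and 9 lower) the DELLA repressor GAI had 64.7 and 71.3 CPM in pSUC2-BRL3 and 30.2 and 34.2 CPM in brl3-2 (log2 1.08, adjusted p = 0.0558, and adjusted p = 0.00716 without the 2 libraries). DIN10, a raffinose-family sugar enzyme of the osmoprotectant list (median -0.17 over 19, 7 higher and 7 lower), had 1647 and 1483 CPM in pSUC2-BRL3, 574 and 579 CPM in brl3-2 and 259 and 523 CPM in Col-0 (log2 1.44, adjusted p = 0.137, and adjusted p = 0.012 without the 2 libraries). Without the 2 libraries 5 wall enzyme genes of 20 were called higher and 3 lower, 3 and 3 of 17 gibberellin genes and 4 and 2 of 19 osmoprotectant genes, against 10.2% higher and 7.57% lower of all genes.

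Phloem, the tissue in which the transgene is driven, was read through its markers. Of 23 phloem genes 2 were higher and 9 lower in both pSUC2-BRL3 libraries (median -0.18), and their summed level was 786 and 634 CPM in pSUC2-BRL3 and 686 and 740 CPM in brl3-2, which overlap. CLE45, a phloem peptide, was at 0 in all 4 libraries. BAM3, its receptor, had 34.7 and 27.5 CPM in pSUC2-BRL3 and 39.6 and 44.9 CPM in brl3-2 (log2 -0.44), and the sucrose exporter SWEET12 had 27.2 and 27.4 CPM in pSUC2-BRL3 and 18.18 and 18.8 CPM in brl3-2 (log2 0.56). With all 16 libraries 0 phloem genes were called. Without the 2 libraries SWEET12 was the 1 called higher and BAM3 was among 4 called lower, against 10.2% and 7.57% of all genes. Xylem markers summed to 108 and 119 CPM in pSUC2-BRL3 and 121 and 145 CPM in brl3-2. Markers of other organs gave 1658 and 1985 CPM in pSUC2-BRL3 and 1740 and 1641 CPM in brl3-2 for root, and 139 and 159 CPM in pSUC2-BRL3 and 133 and 136 CPM in brl3-2 for shoot apex and stomata, with the stem cell gene WUS at 0 in all 4. Photosynthesis genes, whose sum was 231907 and 267370 CPM in pSUC2-BRL3 and 221179 and 181429 CPM in brl3-2, had a median of 0.29 over 24, 15 higher and 1 lower. Cell cycle genes summed to 202 and 148 CPM in pSUC2-BRL3 and 233 and 285 CPM in brl3-2, with 12 of 17 lower and 0 higher (median -0.52). Without the 2 libraries 7 photosynthesis genes were called higher and 1 lower, against 10.2% and 7.57% of all genes. In that fit 5 cell cycle genes were called lower and 0 higher. The part of these sums in the single-gene results was not tested. The remaining lists had medians of -0.52 for flavonoids and anthocyanins (1 higher and 6 lower of 17), -0.40 for aliphatic glucosinolates (0 and 3 of 15), -0.28 for xylem (2 and 7 of 17), -0.23 for the clock (5 and 8 of 16), -0.14 for root (0 and 2 of 6), 0.02 for abscisic acid (5 and 6 of 15), 0.10 for shoot apex and stomata (4 and 0 of 12) and 0.38 for seed storage (0 and 1 of 12).

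**Figure D4:**
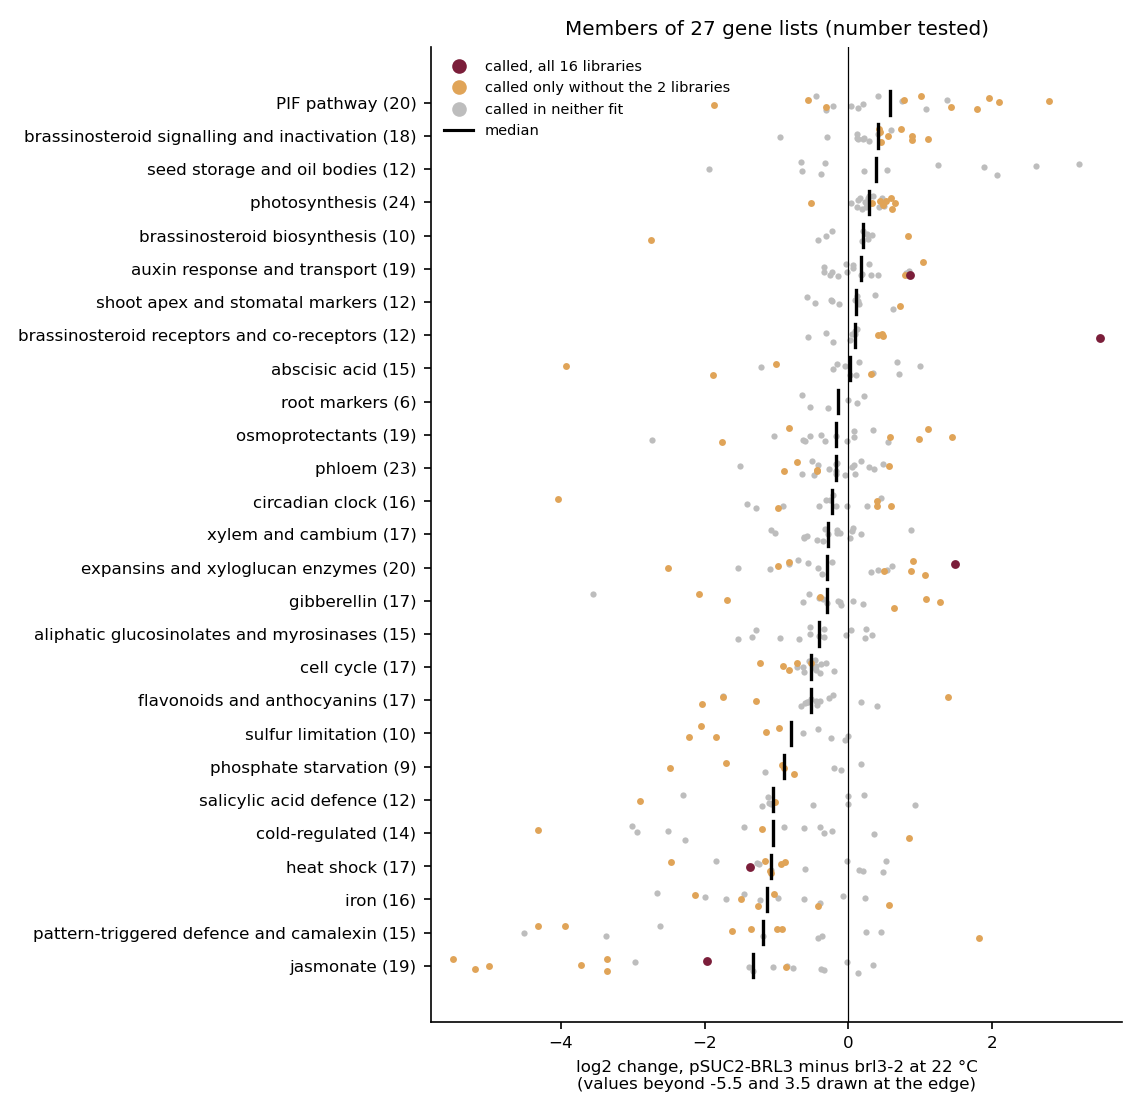
Log2 change of pSUC2-BRL3 over brl3-2 at 22 °C (horizontal axis) of each tested member of 27 gene lists, one row per list ordered by its median (black bar). The jasmonate list has the lowest median, -1.33, and the PIF pathway the highest, 0.58; colours show the fit in which a member was called, and values beyond the axis are drawn at its edge.

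The same 2 lines at 28 °C gave 330 calls (1.61%), of which 68 were higher (0.332%) and 262 lower (1.28%) in pSUC2-BRL3. Leaving out 1 of the 4 libraries at 28 °C gave 3 calls without replicate 1 of pSUC2-BRL3, 78 without its replicate 2, 211 without replicate 1 of brl3-2 and 1 without its replicate 2. Of the genes lower at 22 °C 17 were also called lower at 28 °C, 53.1% of the 32 and 6.49% of the 262, and 30 of the 32 had the same sign, against 49.7% of all tested genes below 0 at 28 °C. Of the genes higher at 22 °C 2 were also called higher at 28 °C, 6.45% of the 31 and 2.94% of the 68, and 2 were called lower. The same sign was seen in 18 of the 31, against 50.3% of all tested genes above 0 at 28 °C. The 32 had medians of -1.61 at 22 °C and -1.12 at 28 °C, and the 31 had medians of 1.03 at 22 °C and 0.09 at 28 °C. Without the 2 libraries, 1 of which is a pSUC2-BRL3 library at 28 °C, 750 genes were called lower (3.59%) and 682 higher (3.27%) at 28 °C. The shared falls then numbered 300, 19% of those at 22 °C and 40.0% of those at 28 °C. The shared rises numbered 232, 10.9% of those at 22 °C and 34.0% of those at 28 °C.

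BRL3 was at 171 and 178 CPM in pSUC2-BRL3 and 1.04 and 0.733 CPM in brl3-2 at 28 °C (log2 7.61, adjusted p = 1.34e-05), and the difference from its change at 22 °C was not called (log2 1.32, adjusted p = 0.416). Called lower at both temperatures among named genes were CAD1 (log2 -2.06 at 28 °C), WRKY18 (-2.64), EDA39 (-1.77), ATPMEPCRB (-1.75), GTR1 (-1.66), CPK4 (-1.58) and OPR3 (-1.47), and NSL1 was lower there as well (-1.77, adjusted p = 0.0102). Without the 2 libraries, the calls at 28 °C of WRKY18 (adjusted p = 0.065), GTR1 (adjusted p = 0.0629) and OPR3 (adjusted p = 0.0512) were lost, and those of the other 5 were kept. In the jasmonate list 5 of 19 genes were called lower at 28 °C, with a median of -1.81. In the pattern-triggered list it was 3 of 15, with a median of -0.95, against 1.28% of all genes called lower. Neither list had a call upwards at 28 °C. Medians at 28 °C were -0.23 for heat shock, 0.86 for cold-regulated and 0.11 for iron genes, and their difference from 22 °C was not tested.

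For 3 genes the change itself differed between temperatures, 0.0146% of those tested, namely EBF2 and ERS2 of ethylene signalling and the desaturase gene ADS1. EBF2 was higher in pSUC2-BRL3 at 22 °C, and at 28 °C it had 102 and 127 CPM in pSUC2-BRL3 and 265 and 228 CPM in brl3-2 (log2 -1.11, difference -2.49, adjusted p of the difference 0.0133). ADS1 likewise was higher at 22 °C, and at 28 °C it had 74.6 and 91.3 CPM in pSUC2-BRL3 and 189 and 155 CPM in brl3-2 (log2 -1.05, difference -2.33). ERS2, an ethylene receptor, had 15.04 and 17.41 CPM in pSUC2-BRL3 and 11.7 and 10.9 CPM in brl3-2 at 22 °C, where it was not called (log2 0.53, adjusted p = 0.164). At 28 °C it had 11.8 and 10.9 CPM in pSUC2-BRL3 and 38.6 and 36.9 CPM in brl3-2 (log2 -1.74, adjusted p = 0.00709, difference -2.26). In all 3 genes the pSUC2-BRL3 libraries were above brl3-2 at 22 °C and below it at 28 °C, with no overlap at either temperature. The count was 0 when any 1 of the 4 libraries at 22 °C, replicate 1 of pSUC2-BRL3 at 28 °C or replicate 1 of brl3-2 at 28 °C was left out, 1 without replicate 2 of brl3-2 at 28 °C and 23 without replicate 2 of pSUC2-BRL3 at 28 °C.

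**Figure D5:**
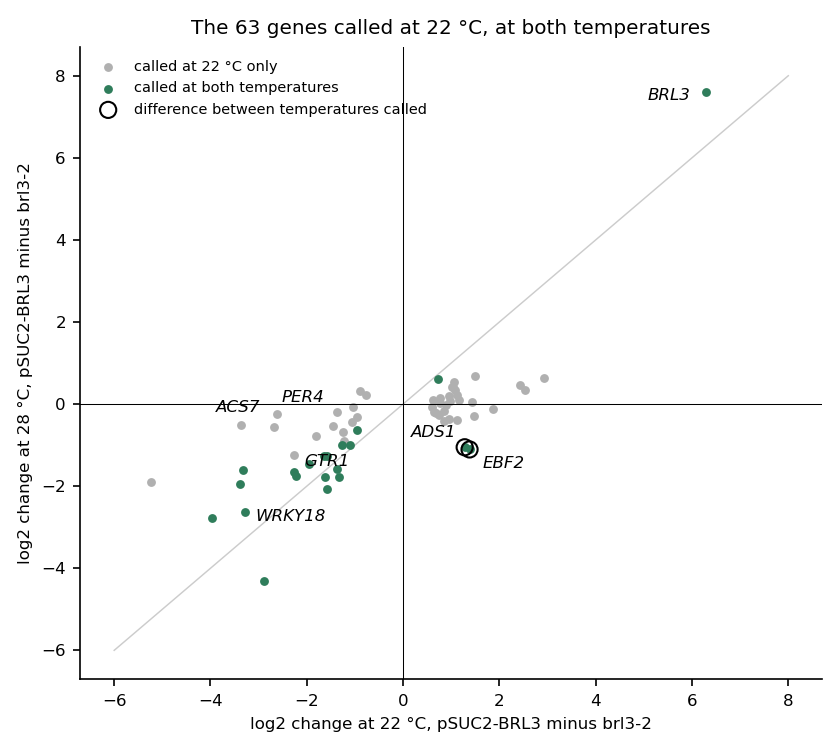
Log2 change of pSUC2-BRL3 over brl3-2 at 28 °C (vertical axis) against that at 22 °C (horizontal axis) for the 63 genes called at 22 °C, in green where also called at 28 °C in either direction and circled where the difference was called. The diagonal marks equal change. Of the 32 genes on the left 30 lie below 0 at 28 °C, and the 31 on the right have a median of 0.09 there with EBF2 and ADS1 lowest.

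The strand setting of the counting is not given in the sources used here, so genes that overlap another on either strand carry an uncertainty that the counts cannot resolve. Genes with near-identical relatives carry a separate uncertainty, as their reads may not be told apart. This second point holds among the named genes for families such as the expansins, XTH, JAZ and antenna genes.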

How the data were processed

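Raw read counts per gene, as deposited by the authors, were the measurement. Per the labels' protocols, RNA with an integrity number above 7 from 150 to 200 mg of hypocotyl tissue went into TruSeq Stranded mRNA libraries. Per the submitters' processing notes FastQC 0.11.2, Trimmomatic 0.38, HISAT2 2.1 with TAIR10, featureCounts 1.6.2 and edgeR 3.34.1 were used. Neither gene annotation, strand option nor read layout is stated (not given in the sources used here). Library totals ran from 19013878 to 26563600 counts, and a line without a gene name was left out.

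The 16 libraries in 8 groups went into 1 fit of edgeR 4.0.16 under R 4.3.3 (quasi-likelihood F-test, two-sided, TMM scaling, filter of 10 counts and a total of 15, 8 residual degrees of freedom), with Benjamini-Hochberg adjustment over 20505 genes. The test was also tried on data simulated from these counts, and the outcome is not used here. SE is the absolute log2 change divided by the root of F. Alternatives were DESeq2 1.42.0, its size factors, no filter and a stricter one, fewer libraries, nuclear genes, the replicate number as a block, and each library left out in turn. Figures used matplotlib 3.10.9 and sequences TAIR10.1.

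The comparison, the 27 lists (421 of 445 loci tested) and the 2 libraries left out were chosen with earlier results of these data known. Named genes are BRL3 and called genes with a symbol whose higher group averaged 5 CPM or more and whose groups do not overlap, up to 12 per direction by size of change. From each list come up to 4 called members by smallest p, or else the most abundant. Up to 4 more per list, called without the 2 libraries, were added after values were seen. To these were added up to 8 genes called at both temperatures and up to 4 per direction of the difference between temperatures. Genes with a locus code alone were counted.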

Additional observations from a re-analysis of the deposited data

Results flagged for a closer look

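The change between pSUC2-BRL3 and brl3-2 differed between temperatures in 3 genes, by a test of the difference itself (edgeR's quasi-likelihood test over all genes, adjusted p = 0.0133 for each). The difference, 28 °C minus 22 °C on the log2 scale, was -2.26 for the ethylene receptor gene ERS2, -2.33 for the desaturase gene ADS1 and -2.49 for EBF2. In each gene both pSUC2-BRL3 libraries were above both brl3-2 libraries at 22 °C and below both at 28 °C. The difference uses replicate 1 of pSUC2-BRL3 at 28 °C, which stood apart from its partner, and 0 genes were called without it. Leaving out any 1 of the 4 libraries at 22 °C or replicate 1 of brl3-2 at 28 °C also gave 0, leaving out replicate 2 at 28 °C gave 23 for pSUC2-BRL3 and 1 for brl3-2, and leaving out replicate 2 of BRL3ox at 22 °C gave 366. The count was 262 without the 2 libraries that stood apart.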

How the results depend on the processing

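The 63 calls at 22 °C became 963 with DESeq2, 146 with no low-count filter, 3179 in the 4 libraries alone, 0 in the 8 libraries at 22 °C, 3715 without the 2 libraries that stood apart, 2791 without that of BRL3ox alone, 35 without that of pSUC2-BRL3 alone, 1 with the replicate block and 1 to 2 when 1 compared library was left out. The 330 calls at 28 °C became 1062 with DESeq2, 3 in the 4 libraries alone, 950 in the 8 at 28 °C, 1432 without the 2 libraries, 1833 and 3 without either alone, and 1 to 211 with 1 library left out. The 3 calls of the difference became 306 with DESeq2, 19 with no filter, 29 in the 8 libraries compared, 262 without the 2 libraries, 366 and 0 without either alone, and 0 to 23 with 1 library left out. Without the 2 libraries, leaving out a compared library as well gave 1048 to 1513 calls at 22 °C. The correlation of same-numbered deviations was -0.145, within the -0.294 to 0.267 of all pairs of groups. That range is itself made of same-numbered pairs. With 2 replicates a group it cannot show whether the replicate numbers pair the libraries. In the 4 libraries the replicate block gave 2035 calls, and 4137 with the numbers of brl3-2 crossed. The alternatives that left out either library alone, crossed the numbers or left out a library from the smaller fit were added after seeing the data. BRL3 stayed between 5.85 and 6.63 with a library left out, and in the 8 libraries at 22 °C its change of 6.27 missed the threshold. Of the 24 named calls, 23 were lost under the replicate block and under each left-out library, all but BRL3, 24 in the 8 libraries at 22 °C, 11 without that of pSUC2-BRL3 at 28 °C and 1 with DESeq2's size factors, with no change of sign. In uncalled genes signs turned with a library left out. PYK10 ran from -0.027 (without replicate 2 of pSUC2-BRL3) to 0.25, KNAT1 from -0.31 to 0.027 (same library), CRU3 from -2.84 (same library) to 4.81, CYCD3;1 from -0.46 to 0.014 (same library), ABF3 from -0.15 to 0.050 (same library; 0.031 without replicate 2 of brl3-2) and COR47 from -0.44 to 0.0021 (without replicate 1 of brl3-2). Causes were not tested, beyond that a left-out library leaves 1 in its group, assumed to vary like the others.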
